A study of Mus musculus with 8 samples.

Results

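The comparison described here set the RNA-seq library of the corpus callosum labelled WT on day 7 after bilateral common carotid artery stenosis (BCAS) against the library labelled TRPA1-KO on the same day. These were 2 of the 8 libraries of the study, with 1 library per label and day. Genes entered the comparison if they reached 1 CPM, a read count scaled to a common library size, in either library, which kept 15722 of 25239 genes. The difference of a gene was its log2(CPM + 1) in the WT-labelled library minus that in the TRPA1-KO-labelled library, so a difference of 1 is about 2-fold, and low genes are understated.

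The study asked how the cation channel TRPA1 shapes the response of white matter to chronic cerebral hypoperfusion, which BCAS produces by placing microcoils around the common carotid arteries of mice. Mice were of the C57BL/6 strain (C57BL/6J in the study's methods) and 8 to 12 weeks old. They were either wild type, males bought from a breeder, or TRPA1-KO, a constitutive knockout line backcrossed to the same strain. The genotypes are thus not described as littermates. The other 6 libraries were WT and TRPA1-KO on days 10 and 14 after BCAS and on day 14 after a sham operation, and they gave the usual spread of each gene. No sham library of day 7 was analysed here, so the comparison is between labels within BCAS.

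The corpus callosum is a tract of myelinated axons, and its resident cells are oligodendrocytes and their precursors, astrocytes, microglia and cells of the vessels. After injury, microglia turn on receptors, lysosomal enzymes and lipid-handling genes to clear myelin debris, and astrocytes raise intermediate filaments and acute-phase proteins in response to cytokines. Myelin is rich in cholesterol, which cells either make through the mevalonate pathway or take up.

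Sequencing depth was close to even in the pair, with 10864679 reads on genes in the WT-labelled library and 9108162 in the TRPA1-KO-labelled library. The other 6 libraries held between 7896071 and 12952093 reads. Each deposited value was a whole multiple of the smallest nonzero value of its library, which was taken as 1 read. Counting error could thus be given for each ratio as an exact 95% interval. The floor of 3 reads corresponds to 0.267 CPM in the WT-labelled library and 0.334 CPM in the TRPA1-KO-labelled library. Intervals and floors cover counting error only. They do not cover the spread between mice, which cannot be measured with 1 library per label.

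The tissue label and the genotype label were checked first. Myelin genes were among the most abundant in both libraries, with *Mbp* (myelin basic protein) at 5322 CPM under the label WT and 5533 CPM under TRPA1-KO. Neuronal genes were abundant too, with *Camk2a*, a kinase of excitatory neurons, at 2319 and 2304 CPM, so the dissected tissue was not white matter alone. *Trpa1* (chromosome 1, 14872644 to 14918862, mm10) had 0 reads in the WT-labelled library and 11 reads in the TRPA1-KO-labelled library, at 1.22 CPM. That is 4.59-fold over the floor of 3 reads, and the counting interval of the ratio starts at 3.14. Over the other 6 libraries *Trpa1* lay between 0 and 0.959 CPM, and the libraries labelled WT held 0 or 1 read against 3 to 10 under TRPA1-KO. The reads thus went against the labels, and gene-level values do not show whether they lie in the deleted part of the gene. Every direction below is therefore a difference between libraries as labelled.

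A marker of sex and strain background was also checked. *Uty*, a Y-linked gene, was at 18.9 and 17.1 CPM, and all 8 libraries carried Y-linked reads. *Erdr1* differed by 5.49, from 608 reads in the WT-labelled library to 2 in the TRPA1-KO-labelled library, and its neighbour *Mid1* by 1.84. Neither gene was past the spread of the other 6 libraries, because both separated the labels on the other days too. *Pisd-ps3*, a pseudogene transcript, was at 556 CPM against 106 and lay between 213 and 375 CPM in the other WT-labelled libraries and between 104 and 118 CPM in the other TRPA1-KO-labelled ones.

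Transcripts of liver cells were present in the day 7 pair. A list of 32 hepatocyte genes, made after their values had been seen, summed to 238 CPM in the WT-labelled library, 42.1 CPM in the TRPA1-KO-labelled library and 13.3 to 19.6 CPM in the other 6. *Alb* (serum albumin) had 483 reads in the WT-labelled library and 51 in the TRPA1-KO-labelled library, and at most 4 reads in any of the other 6. *Serpina1a*, the gene of a liver protease inhibitor, had 72 and 7 reads, and *Ahsg*, which encodes fetuin, had 41 and 6, with 0 reads of both genes in all the other libraries. Of the 31 hepatocyte genes past the filter, 29 were at least 2-fold higher in the WT-labelled library, with a median difference of 1.43, beside 5.05% of all genes past the filter. None of the 32 was at 0 reads there, and 13 were at 0 reads in all of the other 6 libraries. The list was chosen on these values, so the count is no independent evidence. The list's gene with the highest mean level was *Apoa2*, which every library carried. Of 22 *Mup* genes, a family of near-identical urinary proteins whose reads are hard to assign, 12 were at least 2-fold higher, and the family summed to 151 against 26.3 CPM. Of 6 markers of Kupffer cells, the macrophages of the liver, *Cd5l* had 90 reads against 2, whereas *Vsig4* and *Timd4* had 0 reads in the WT-labelled library and *Clec4f* had 3. The 6 markers summed to 9.69 against 2.23 CPM. None of the hepatocyte genes belongs to the lists used below, and the part of liver RNA in any result below was not tested.

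**Figure D1:**
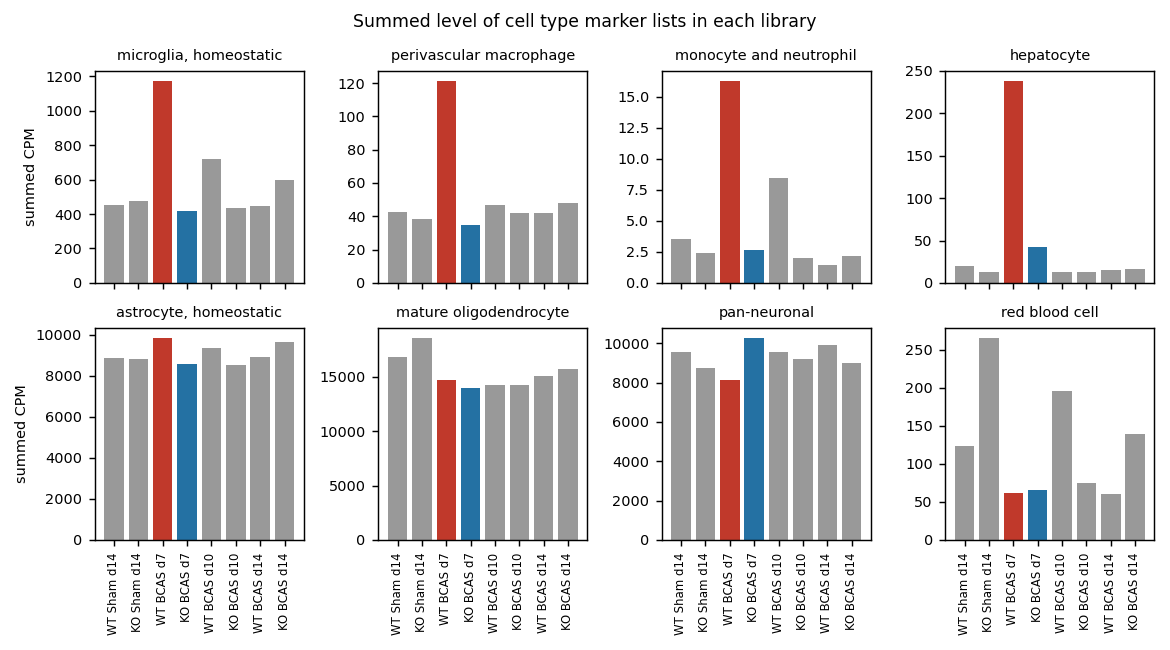
Summed level in CPM (y axis) of 8 cell type marker lists in each of the 8 libraries (x axis), 1 bar per library, with the WT-labelled day 7 library in red and the TRPA1-KO-labelled one in blue. Homeostatic microglia sum to 1173 against 418 CPM and hepatocyte genes to 238 against 42.1 CPM, whereas the mature oligodendrocyte sums are 14715 and 13937 CPM beside 14236 to 18610 CPM in the other libraries.

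Gene expression differed mostly in the direction of higher values under the label WT. At least 2-fold higher were 794 genes (5.05% of those past the filter), and 53 (0.337%) were at least 2-fold lower. Of the higher genes, 300 were under 1 CPM in the TRPA1-KO-labelled library, and 158 were at least 4-fold and 27 at least 8-fold higher. A gene under 1 CPM in the TRPA1-KO-labelled library passed the filter only through the WT-labelled library, where it was high, so counts within lists lean towards higher. The reverse held for 20 of the 53 lower genes, which were under 1 CPM in the WT-labelled library. The members past the filter that reached 1 CPM in the TRPA1-KO-labelled library were 24 of 31 interferon-stimulated genes, 13 of 19 cell cycle genes, 9 of 13 pan-reactive genes, 9 of 14 Toll-like receptor and inflammasome genes and 4 of 8 class II genes. Other such lists were complement, with 18 of 21, disease-associated microglia, with 16 of 20, and IL-6 and JAK-STAT3, with 13 of 17. Matrix proteases and their inhibitors had 13 of 17. The values just inside and just outside the 2-fold threshold were 1.001 and 0.995 among higher genes and -1.001 and -0.993 among lower genes.

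A stricter rule also asked that the difference exceed the whole range of the gene over the other 6 libraries. It kept 735 higher genes (4.67%) and 40 lower genes (0.254%). A limma fit in which each lone day 7 library was assumed to vary like the other 6 called 291 genes higher (1.61% of 18123 tested) and 45 lower (0.248%) at a Benjamini-Hochberg adjusted p under 0.05. Of these calls, 256 higher and 9 lower genes were also 2-fold apart. Such calls set 2 libraries apart and do not test the genotype, and the p-values measure only the spread between these libraries. The study's methods say in general that a sample is from a single mouse, and the labels do not say which mice or pools gave the libraries. The number called depended on single libraries: without WT sham it was 151 higher and 19 lower, without TRPA1-KO day 14 it was 162 and 20, without TRPA1-KO sham 176 and 30, without TRPA1-KO day 10 192 and 28, and without WT day 10 496 and 72.

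Most of the difference lay in the WT-labelled library. It was the highest of all 8 libraries for 758 of the 794 higher genes, with a median of 1.28 above the median of the other 6, whereas the TRPA1-KO-labelled library was 0.21 below that median (-0.21) and the lowest of 8 for 261. Over all genes past the filter, 638 were 2-fold or more away from the median of the other 6 in the WT-labelled library and 50 in the TRPA1-KO-labelled library. For the 53 lower genes both libraries moved apart, with medians of -0.59 and 0.56.

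**Figure D2:**
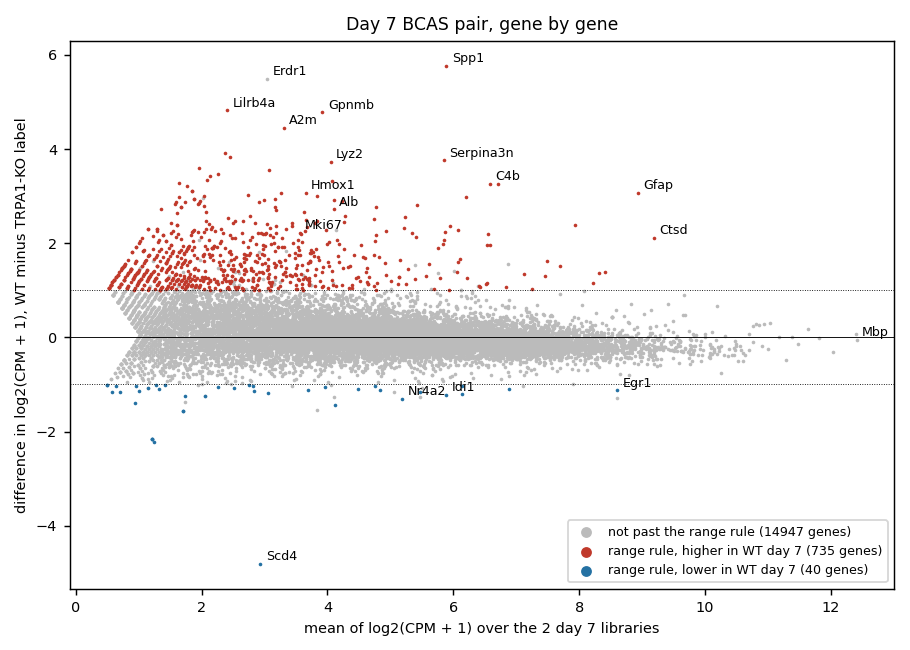
Difference in log2(CPM + 1), WT label minus TRPA1-KO label (y axis), against the mean log2(CPM + 1) of the 2 day 7 libraries (x axis), 1 point per gene past the filter, with dotted lines at a 2-fold difference. The 735 genes higher beyond the range of the other 6 libraries are in red and the 40 lower ones in blue. *Spp1* is at the top with 5.77 and *Scd4* at the bottom with -4.81.

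Microglial genes were higher in the WT-labelled library as a group. Of 16 genes of homeostatic microglia, 10 were at least 2-fold higher and none was lower, with a median difference of 1.15 beside 0.0018 over all genes. The list summed to 1173 CPM against 418, and the other 6 libraries lay between 438 and 720 CPM. *Fcrls*, a microglial Fc receptor-like gene, was at 113 CPM against 15.1, a ratio of 7.44 (6.23 to 8.95), and was called by limma (adjusted p = 0.0198). *Csf1r*, the receptor for the growth factors that keep microglia alive, was at 221 against 87.1 CPM, and *Cx3cr1*, the fractalkine receptor, at 106 against 40.2 CPM. *P2ry12* (a purinergic receptor that guides microglial processes) was at 52.6 CPM against 29.9, and *Tmem119* at 36.1 CPM against 15.8. These last genes, which define resting microglia, were thus closer together than *Fcrls*, and *P2ry12* did not reach 2-fold. In bulk tissue, fewer cells of a type and less RNA per cell cannot be told apart.

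Genes of the disease-associated state of microglia included the largest difference of all genes, that of *Spp1*. *Spp1* (osteopontin, a secreted phosphoprotein of phagocytes; chromosome 5, 104435111 to 104441053) was at 436 CPM in the WT-labelled library and 7.01 CPM in the TRPA1-KO-labelled library, a ratio of 62.2 (48.6 to 81.1). Its values in the other 6 libraries were 3.64 to 5.80 CPM, so the WT-labelled library alone was high, and *Spp1* had the smallest adjusted p of the limma fit (0.000106). *Gpnmb*, a glycoprotein of lipid-laden phagocytes, was at 78.3 CPM against 1.89, with 1.17 to 8.70 CPM in the others, where the highest was WT day 10. *Lgals3*, which encodes the lectin galectin-3, was at 19.5 CPM against 0.445 and at most 1.26 CPM elsewhere. *Lyz2* (lysozyme of myeloid cells) was at 59.3 CPM against 3.56, and at most 9.70 CPM elsewhere. All 20 members of the disease-associated list were above 0 in their difference and 12 were at least 2-fold higher, with a median of 1.66. *Trem2*, the lipid receptor that drives this state, was at 36.0 against 9.02 CPM, and *Apoe*, the lipid carrier, was at 1465 against 929 CPM, a difference of 0.66 that limma called (adjusted p = 0.0401) although it is less than 2-fold.

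The lysosome list followed. Of its 20 genes, 11 were at least 2-fold higher and none was lower, with a median of 1.17, and the list summed to 6575 against 3739 CPM. *Ctsd* (cathepsin D, an acid protease) was among the most abundant of all higher genes, at 1209 CPM against 279, with 264 to 510 CPM in the other 6. *Cd68*, a lysosomal membrane protein of macrophages, was at 50.5 against 5.90 CPM, a ratio of 8.56 (6.45 to 11.6). *Grn* (progranulin) was at 200.1 against 43.1 CPM. *Psap* and *Lamp1*, which most cells express, differed by 0.08 and 0.25, so the list did not move evenly.

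*Plin2*, the coat protein of lipid droplets, was at 52.0 CPM against 4.34 and at 4.50 to 5.80 CPM in the other 6, and limma called it (adjusted p = 0.0011). *Lpl*, the lipoprotein lipase, was at 41.7 against 12.1 CPM. *Abca1*, which exports cholesterol from cells, was at 117 against 37.5 CPM, and *Apod*, an apolipoprotein, at 547 against 209 CPM. *Ch25h*, which makes 25-hydroxycholesterol, was at 9.78 against 0.557 CPM. *Msr1*, the macrophage scavenger receptor, had 169 reads against 4, and at most 0.504 CPM elsewhere. *Abca1*, *Apod* and *Ch25h* stand in no fixed list and were picked after their values were seen.

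Many complement genes were higher in the WT-labelled library. Of 21 genes, 13 were at least 2-fold higher and none was lower, with a median of 1.64, and the list summed to 1012 against 210 CPM. The 3 chains of C1q, the recognition molecule that microglia make, were at 148, 139 and 125 CPM for *C1qa*, *C1qb* and *C1qc* in the WT-labelled library against 29.8, 26.0 and 25.8 CPM in the TRPA1-KO-labelled library. The other 6 libraries stayed at or below 62.3 CPM for each of them. *C4b*, which astrocytes express, was at 295 against 29.8 CPM and reached 149 CPM in WT day 10. *C3*, the central component, had 134 reads against 11, and its receptor *C3ar1* was at 26.9 against 2.34 CPM. Limma called *C1qb*, *C1qc* and *C3* among others, 6 of the 21 in all, and not *C4b* (adjusted p = 0.125). The liver also makes complement, and the hepatocyte sum was 238 against 42.1 CPM in the same libraries, and its part in the complement result was not tested.

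Interferon-stimulated genes, the antiviral programme downstream of interferon receptors, were higher in the WT-labelled library. Of 31 genes, 25 were at least 2-fold higher, 24 were past the range of the other libraries, and none was lower. All 31 differences were above 0, with a median of 1.73, and limma called 6. *Oasl2*, an oligoadenylate synthetase-like sensor, was at 20.8 CPM against 1.89 and at 1.96 to 10.5 CPM in the other 6. *Bst2* (tetherin, which holds budding virus at the membrane) was at 13.8 against 1.67 CPM, and *Rsad2* (viperin) at 8.98 against 0.891 CPM, a ratio of 10.1 (4.93 to 24.0). WT day 10 was second for *Oasl2*, *Bst2* and *Rsad2*, and the list summed to 501, 191 and 337 CPM in WT day 7, TRPA1-KO day 7 and WT day 10.

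The promoters of these genes were read because interferon-stimulated genes are known to carry a shared element. The interferon response motif, which is GAAA, any 2 bases and GAAA again, was searched on both strands from 250 bases before to 50 bases after each RefSeq start (GRCm38.p6). It was present for 15 of the 21 list genes with a window (71.4%), beside 3.99% of all 27025 genes with one. Over the 735 genes higher beyond the range, 564 had a window and 9.93% of these held the motif, and over the 40 lower genes it was 7.41% of 27. The 735 genes include 24 of the 31 interferon-stimulated genes, so the shares of the list and of the higher genes are not independent. The share over all genes covers every gene with a window, including genes not past the 1 CPM filter. The AP-1 motif TGANTCA was in 14.2% of the higher genes' windows by gene and 8.97% of all, the STAT motif TTCNNNGAA in 9.93% and 9.55%, and the cAMP response motif TGACGTCA in 1.42% and 2.03%. A match is a description of letters, not evidence of binding. Stretches of 120 bases upstream of the start are shown for members of the interferon and chemokine lists, with every match to the interferon response motif or its reverse complement in capitals.
Isg15 (chr4:156200832-156200951, minus strand): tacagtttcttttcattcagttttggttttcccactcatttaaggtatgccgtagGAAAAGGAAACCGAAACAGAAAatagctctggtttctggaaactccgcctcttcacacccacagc
Ifit1 (chr19:34640730-34640849, plus strand): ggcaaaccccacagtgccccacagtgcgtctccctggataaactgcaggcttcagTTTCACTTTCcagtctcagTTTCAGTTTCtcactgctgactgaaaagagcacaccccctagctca
Rsad2 (chr12:26456508-26456627, minus strand): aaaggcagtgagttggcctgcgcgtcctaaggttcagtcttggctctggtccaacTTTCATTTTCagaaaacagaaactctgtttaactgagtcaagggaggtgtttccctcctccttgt
Cxcl10 (chr5:92349020-92349139, minus strand): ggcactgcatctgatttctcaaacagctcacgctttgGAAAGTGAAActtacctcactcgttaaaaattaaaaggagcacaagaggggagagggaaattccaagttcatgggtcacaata

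In the stretch of *Isg15*, a ubiquitin-like modifier, 3 overlapping matches run together, the first starting 78 bases before the start. Its level was 6.05 CPM in the WT-labelled library, 2.23 CPM in the TRPA1-KO-labelled library and 0.728 to 1.89 CPM elsewhere. *Ifit1*, which binds foreign RNA, holds 2 separate matches and was at 11.7 against 2.12 CPM. *Cxcl10*, the chemokine that draws T cells, holds 1 match. It had 63 reads in the WT-labelled library and 0 in the TRPA1-KO-labelled library, 16.8-fold over the floor, with a counting interval that starts at 13.2. Only in *Isg15* of these 3 was the TRPA1-KO-labelled library above every one of the other 6 libraries.

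Antigen presentation genes were higher in the WT-labelled library, and in the day 10 pair they were higher under the label WT too. Of 17 class I genes, 8 were at least 2-fold higher, but only 3 were past the range of the other libraries, with a median of 0.83. *B2m*, the light chain of class I, was at 199 against 67.3 CPM, and WT day 10 was at 181 CPM. The class I list summed to 593 CPM in WT day 7, 587 CPM in WT day 10 and 265 CPM in TRPA1-KO day 7, so it does not set the WT-labelled library apart from WT day 10. Of 8 class II genes, 6 were 2-fold higher, with a median of 1.52, but 3 were past the range of the other libraries and limma called none. Only 4 of the 8 reached 1 CPM in the TRPA1-KO-labelled library, so the count leans towards higher. In the day 10 pair 6 of the 8 were 2-fold higher too, with a median of 1.33. *H2-Ab1* had 34 reads against 0, 9.05-fold over the floor. *Cd74*, the class II chaperone, had 67 reads against 11, with 8.95 CPM in WT day 10 above the 5.96 CPM of WT day 7.

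Genes of innate sensing were higher in the WT-labelled library. Of 14 Toll-like receptor and inflammasome genes past the filter, 10 were at least 2-fold higher and none was lower, with a median of 1.41. Only 9 of the 14 reached 1 CPM in the TRPA1-KO-labelled library, so the count leans towards higher, and the median over all 17 genes of the list was 1.34. *Tlr2*, a receptor for bacterial lipoproteins, was at 10.6 against 0.445 CPM, and WT day 10 was at 6.18 CPM. *Pycard*, the adaptor of the inflammasome, had 103 reads against 9. Of 16 chemokine genes, 12 passed the filter and 9 were at least 2-fold higher, with a median of 1.81. Only 4 of the 12 reached 1 CPM in the TRPA1-KO-labelled library, so the count leans towards higher and is not read as a result. The median was 1.45 with no filter, 0.96 at a mean of 1 CPM over the 8 libraries and -0.27 at 10 CPM in either library. *Ccl4* had 44 reads against 0, 11.7-fold over the floor, and *Ccl12* had 58 against 3, a ratio of 15.4 (5.03 to 77.1). Of the 12 differences 10 were above 0, and *Cx3cl1* and *Cxcl12* went the other way without reaching 2-fold. *Cx3cl1*, the neuronal ligand of the microglial receptor and the most abundant of the list, was at 478 against 704 CPM. *Cxcl12* was at 51.4 against 62.0 CPM. Of 15 cytokine and NF-kB genes, 4 were 2-fold higher, led by *Tnfrsf1a*, a receptor of TNF, at 22.2 against 6.57 CPM, while *Il1b* had 4 reads against 6 and *Tnf* 1 against 0.

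Markers of infiltrating cells were low in both libraries. Of the monocyte and neutrophil list, 4 genes of 13 passed the filter, and only 1 of these reached 1 CPM in the TRPA1-KO-labelled library. Their values thus lean towards higher and are not read as a result. Without a filter the median over the list was 0.57. The list summed to 16.3 against 2.67 CPM and 1.43 to 8.44 CPM elsewhere. *Chil3* had 50 reads against 1. *Ccr2*, the receptor that brings monocytes into tissue, had 20 against 0, 5.33-fold over the floor, with a counting interval that starts at 3.94. The neutrophil genes *S100a8* and *S100a9* had 5 reads each in the WT-labelled library, so these cells were near the limit of detection. Lymphocyte markers summed to 11.2 against 8.79 CPM, mostly from *Cd4* at 8.98 and 8.68 CPM. *Cd4* was the 1 lymphocyte gene past the filter, and of the 14 in the files 4 had 0 reads in the WT-labelled library and 12 in the TRPA1-KO-labelled library. Of 8 perivascular macrophage genes past the filter, 1 was at least 2-fold higher, 7 differences were above 0 and the median was 0.71, with 5 of the 8 at 1 CPM in the TRPA1-KO-labelled library. The list summed to 121 against 35.1 CPM, of which *Stab1*, a scavenger receptor, was 90.4 and 14.6 CPM. *F13a1* was at 2.76 against 1.11 CPM and *Maf* at 19.7 against 14.0 CPM, while *Mrc1*, *Lyve1* and *Cd163*, which define these cells, were at 2.58, 0.356 and 1.33 CPM in the WT-labelled library and 1.78, 0.334 and 1.89 CPM in the TRPA1-KO-labelled library. Red blood cell markers summed to 61.1 and 65.2 CPM, nearly all from *Bpgm*, an enzyme of glycolysis at 56.6 and 64.1 CPM, and haemoglobin genes were near the floor in the pair.

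**Figure D3:**
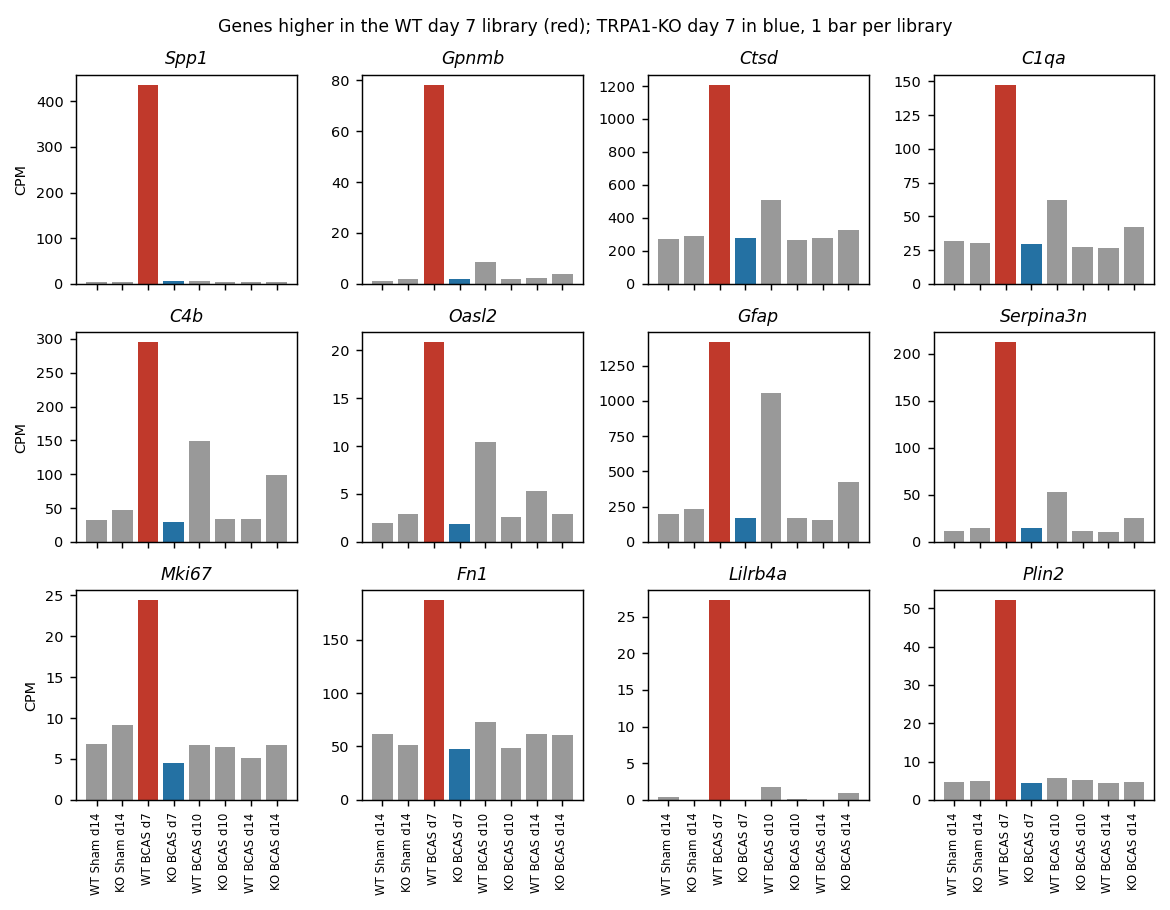
Level in CPM (y axis, from 0 in each panel) of 12 genes in each of the 8 libraries (x axis), 1 bar per library, with the WT-labelled day 7 library in red and the TRPA1-KO-labelled one in blue. *Spp1*, *Plin2* and *Mki67* are high in the red bar alone, whereas *Gfap* and *C4b* are also high in WT day 10, with 1060 and 149 CPM.

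Genes of reactive astrocytes were higher in the WT-labelled library. Of 13 pan-reactive genes, 9 were at least 2-fold higher, all past the range of the other libraries, with a median of 1.75. *Gfap*, the intermediate filament of astrocytes, was at 1415 CPM in the WT-labelled library and 167 CPM in the TRPA1-KO-labelled library, a ratio of 8.47 (8.03 to 8.94). The other 6 libraries spanned 157 to 1060 CPM, the highest being WT day 10, and limma did not call *Gfap* (adjusted p = 0.197). *Vim*, the filament protein vimentin, was at 324 against 33.0 CPM, *Serpina3n*, an acute-phase protease inhibitor, at 212 against 14.7 CPM, and *Osmr*, the oncostatin M receptor, at 18.1 against 4.68 CPM. Of the A1 list 8 of 12 and of the A2 list 6 of 11 were at least 2-fold higher, with medians of 1.53 and 1.09. Of the 11 A2 genes, 8 reached 1 CPM in the TRPA1-KO-labelled library, and the A2 median was 0.69 at 10 CPM in either library. *Tgm1*, a transglutaminase of the A2 list, had 214 reads against 3, and *Ptx3*, a pentraxin, had 46 against 2. None of 21 homeostatic astrocyte genes reached 2-fold in either direction and limma called none, but 19 differences were above 0, with a median of 0.32, and the WT-labelled library was the highest of 8 for 15 of them. *Sox9*, an astrocyte transcription factor, was at 34.5 against 18.8 CPM and *Aqp4*, the water channel of astrocyte endfeet, at 155 against 88.8 CPM, whereas the glutamate transporter *Slc1a2* was at 2675 CPM in both.

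Signalling through the IL-6 family was examined because the study names 2 of its cytokines. *Lif* (leukaemia inhibitory factor) had 15 reads against 5, a ratio of 2.40 whose counting interval, 0.828 to 8.43, includes 1, and *Cntf* had 26 against 12, a ratio of 1.73 (0.843 to 3.77). Neither difference was detectable at this depth. Of 17 genes of the IL-6 and JAK-STAT3 list, 3 were at least 2-fold higher, *Bcl3*, *Osmr* and *Socs3*, the last a feedback inhibitor with 118 reads against 30. *Stat3*, the transcription factor itself, had 1050 reads against 449, at 93.4 CPM in the WT-labelled library with a narrow 49.7 to 58.1 CPM elsewhere, and it was called by limma at a difference of 0.89 (adjusted p = 0.00821). The astrocyte genes named by the study, 32 past the filter, had 8 members at least 2-fold higher and a median of 0.25, and this list was chosen on these samples and is no independent evidence.

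Of 19 collagen, laminin and fibronectin genes, 8 were at least 2-fold higher and none was lower, with a median of 0.66. *Fn1*, which encodes fibronectin, was at 187 against 47.4 CPM, with 48.8 to 73.2 CPM elsewhere, and was called by limma (adjusted p = 0.00454). *Col4a1*, a collagen of the vessel basement membrane, was at 114 against 47.2 CPM. Of 19 TGF-beta and BMP genes, 7 were at least 2-fold higher, among them *Thbs1* (thrombospondin 1, which activates TGF-beta) at 27.8 against 1.45 CPM and *Tgfbi* at 29.0 against 4.34 CPM. Of 17 matrix proteases and their inhibitors, 3 were at least 2-fold higher, but only 13 of the 17 reached 1 CPM in the TRPA1-KO-labelled library. Among the 3 was *Mmp12*, the macrophage elastase, with 74 reads against 2, which passed the filter only through the WT-labelled library. Of 16 annexin and S100 genes, 7 were at least 2-fold higher, led by *Anxa2* with 337 reads against 35. Liver also secretes fibronectin, and the part of the hepatocyte transcripts in *Fn1* was not tested.

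Proliferation genes were higher in the WT-labelled library than in all the other libraries in their sum. Of 19 cell cycle genes, 13 were at least 2-fold higher, all past the range of the other libraries, with a median of 1.27. *Mki67*, a marker of cycling nuclei, was at 24.4 against 4.45 CPM and 5.16 to 9.21 CPM elsewhere, a ratio of 5.47 (3.92 to 7.83). *Top2a*, the topoisomerase of dividing cells, was at 24.5 against 4.56 CPM. The list summed to 227 CPM in the WT-labelled library, 98.6 CPM in the TRPA1-KO-labelled library and 91.3 to 124 CPM in the others, where WT day 10 was at 99.9 CPM. Of the neural stem cell and neuroblast genes, 2 of 13 were at least 2-fold higher, *Mki67* and *Nes*, and *Dcx*, a neuroblast marker, was at 45.4 and 39.4 CPM.

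Few stress genes reached 2-fold, in the Nrf2 and integrated stress response lists about as few as among all genes (5.05%). *Hmox1* (haem oxygenase 1) had 398 reads against 30, a ratio of 10.6 (7.31 to 15.9), but it was the 1 gene of 17 in the Nrf2 list to reach 2-fold, and *Nqo1* and *Gclm* differed by 0.48 and 0.26. *Atf3*, a transcription factor of the stress response, had 141 reads against 3 and was the 1 gene of 20 in the integrated stress response list, where *Atf4* was at 93.5 against 128 CPM. Of 19 hypoxia genes 3 were 2-fold higher, *Hk2*, *Angptl4* and *Car9*, and *Vegfa* was at 99.4 and 93.0 CPM. *Mt2*, a metallothionein, was at 216 against 105 CPM, and of its list 1 of 5 genes reached 2-fold.

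Cholesterol synthesis genes were lower in the WT-labelled library. Of 21 genes of cholesterol and fatty acid synthesis, 5 were at least 2-fold lower, beside 0.337% of all genes past the filter, and none was higher. All 21 genes had differences below 0, with a median of -0.71. Limma called 12 of them lower. *Msmo1*, a sterol oxidase, was at 45.4 CPM in the WT-labelled library, 107 CPM in the TRPA1-KO-labelled library and 80.6 to 93.9 CPM in the other 6, and *Idi1*, an isomerase, was at 37.7 against 89.3 CPM with 60.2 to 70.3 CPM elsewhere. *Mvd*, the mevalonate decarboxylase, lies outside the list and was at 9.60 against 27.6 CPM. For these genes the WT-labelled library was below all the other libraries, and the TRPA1-KO-labelled library was above them. *Hmgcs1*, the synthase that feeds the mevalonate pathway, was just under the threshold with -0.99, at 169 against 337 CPM and 310 to 342 CPM elsewhere, and limma called it (adjusted p = 0.00182). Fatty acid genes differed less, with *Fasn* at -0.25, *Scd1* at -0.20 and *Acaca* at -0.014.

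The largest lower difference was that of *Scd4*, a stearoyl-CoA desaturase (chromosome 19, 44333326 to 44346743), and it belonged to the TRPA1-KO-labelled library. It had 5 reads in the WT-labelled library and 354 in the TRPA1-KO-labelled library, 0.445 against 39.4 CPM, and at most 1.73 CPM elsewhere, so the TRPA1-KO-labelled library was 88.6-fold (37.6 to 275) higher. The 4 *Amy2a* genes, amylases with near-identical sequences, had 1 read against 35 to 37, and *Gm1987* and *Ccl21a* had the same counts as each other in every library, so reads of these copies cannot be assigned to a gene.

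Immediate early genes, which neurons and glia switch on within minutes of activity, were lower in the WT-labelled library. Of 20 genes, 9 were at least 2-fold lower and none was higher, with a median of -0.91, but only 3 were past the range of the other libraries and limma called none. *Egr1* was at 263 against 575 CPM and 247 to 513 CPM elsewhere, *Nr4a2* at 22.1 against 56.2 CPM, *Fos* at 27.7 against 67.8 CPM and *Arc* at 247 against 609 CPM. For *Fos*, the WT-labelled library was within the range of the others (14.6 to 56.6 CPM) and the TRPA1-KO-labelled library above it. The list summed to 1208 CPM in the WT-labelled library, 2304 CPM in the TRPA1-KO-labelled library and 2169 CPM in TRPA1-KO day 10, with 1030 to 1651 CPM in the rest, so the day 7 difference lay mainly in high TRPA1-KO values. *Jun* and *Ier3* went the other way, with 0.56 and 0.70. *Bdnf*, an activity-dependent growth factor, was at 9.78 against 21.4 CPM and 11.2 to 24.0 CPM elsewhere.

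**Figure D4:**
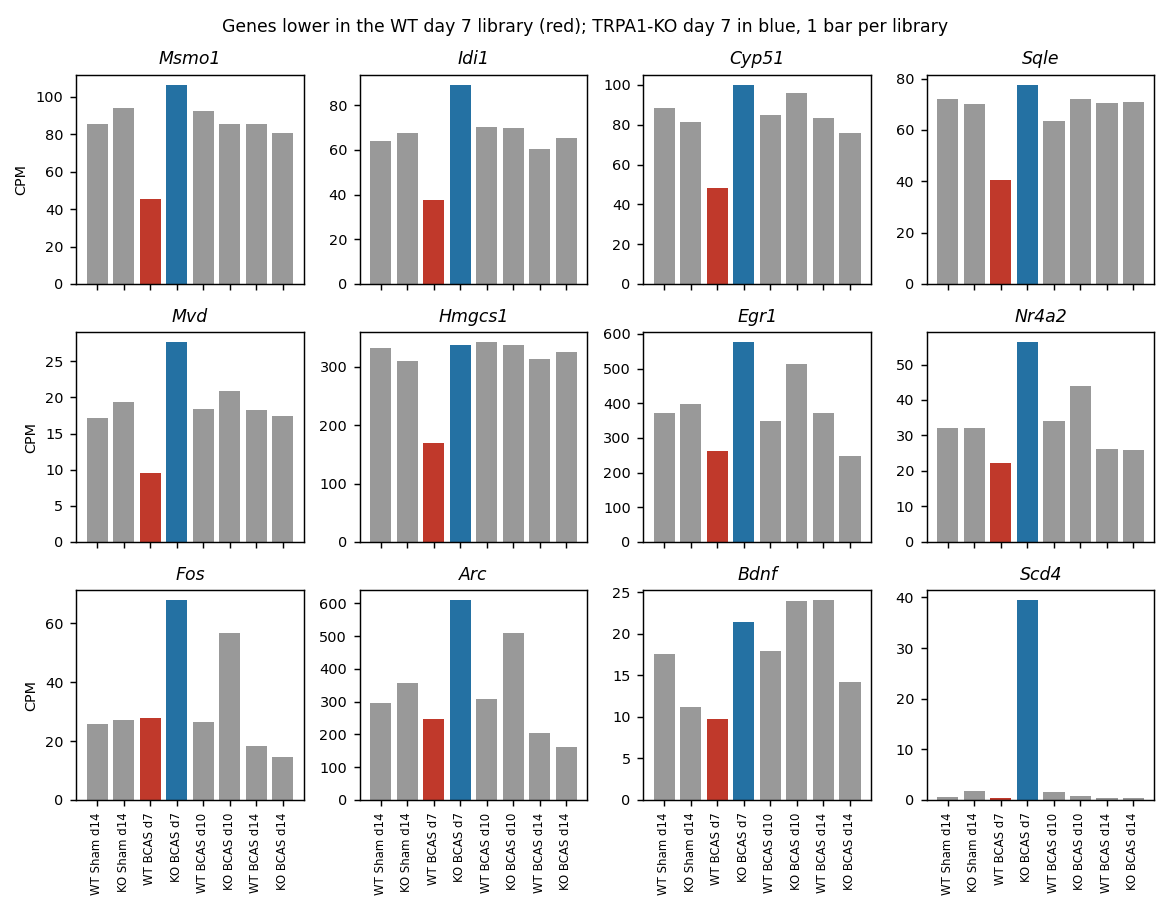
Level in CPM (y axis, from 0 in each panel) of 12 genes in each of the 8 libraries (x axis), 1 bar per library, with the WT-labelled day 7 library in red and the TRPA1-KO-labelled one in blue. Sterol genes are low in the red bar alone, *Fos* and *Arc* are high in the blue bar and in TRPA1-KO day 10, and *Scd4* is high in the blue bar alone.

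Oligodendrocyte genes differed in both directions, mostly by less than 2-fold, and limma called none. Of 18 mature oligodendrocyte genes 1 was 2-fold higher, close to the share over all genes (5.05%). This was *Klk6*, a protease, at 19.3 against 8.57 CPM. Of the 18 differences 10 were above 0, and the median was 0.020. *Trf* (transferrin) was at 871 against 532 CPM and *Mog*, a myelin surface protein, at 154 against 98.4 CPM, whereas *Opalin*, a membrane protein of myelin, was at 44.3 against 64.9 CPM. Of 15 precursor genes, 14 differences were above 0, with a median of 0.22, and *Bmp4* alone reached 2-fold, with 51 reads against 15. *Cspg4*, the NG2 proteoglycan of precursors, was at 33.6 against 19.5 CPM, and *Pdgfra*, the receptor that defines precursors, was at 57.5 and 55.7 CPM, with *Olig2* at 37.3 and 31.9 CPM and *Sox10* at 77.0 and 71.4 CPM. Of 14 growth factors that act on myelin, *Tgfb1* was higher, at 15.2 against 5.23 CPM, and *Bdnf* lower.

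Neuronal genes were slightly lower in the WT-labelled library. None of 14 pan-neuronal genes reached 2-fold, but all 14 differences were below 0, with a median of -0.30, and the list summed to 8152 against 10286 CPM, with 8758 to 9938 CPM elsewhere. *Snap25*, a synaptic vesicle fusion protein, was at 2110 against 2945 CPM. Limma called *Tubb3* and *Neurod6* lower, at differences of -0.58 and -0.83 (adjusted p = 0.0134 and 0.0227). Cortical excitatory neuron genes had a median of -0.26, interneuron genes -0.10 and striatal genes -0.092, and the striatal sum varied from 1928 to 3538 CPM over the other 6 libraries against 1484 and 1680 CPM in the pair. Genes of the axon node and paranode had a median of -0.20 and those of the mitochondrial respiratory chain -0.22, with none at 2-fold. The pan-neuronal median was above 0 in the other pairs, at 0.10 in sham, 0.044 on day 10 and 0.16 on day 14. The part of the lower neuronal level on day 7 in the sterol and immediate early results was not tested.

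Few vessel genes reached 2-fold, in the endothelial list about as few as among all genes (5.05%). Of 17 endothelial differences 13 were above 0, with a median of 0.31. The endothelial list summed to 693 against 533 CPM, with 559 to 645 CPM elsewhere. Medians were 0.39 for pericyte and smooth muscle genes and 0.54 for fibroblast genes, the latter 0.053 at 10 CPM in either library. *Vwf*, the von Willebrand factor of endothelium, was at 82.3 against 15.6 CPM, a ratio of 5.28 (4.41 to 6.35), and at 17.5 to 38.5 CPM elsewhere, and it was the 1 gene of 17 endothelial genes at 2-fold. *Pecam1*, an adhesion molecule, and *Cldn5*, a tight junction protein, differed by 0.71 and 0.86, and limma called *Cldn5* (adjusted p = 0.0430). None of 14 pericyte and smooth muscle genes reached 2-fold, and 3 of 11 fibroblast genes did, *Col3a1*, *Dcn* and *Col1a1*. Of 11 ependymal genes *Cfap126* was higher, and no choroid plexus gene of 6 reached 2-fold, with *Ttr*, which liver also makes, at 50 reads against 16. Notch and Wnt genes had medians of 0.13 and -0.0017 with none at 2-fold. Of 14 TRP channel genes past the filter, *Trpv4* was higher, at 2.76 against 0.668 CPM, and *Trpa1* was lower.

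The size of the day 7 contrast was compared with the other same-day pairs of labels, each of 1 library against 1. At the same 1 CPM filter and 2-fold threshold, 22 genes were higher under WT and 24 lower in the sham pair, 211 and 50 in the day 10 pair, and 28 and 80 in the day 14 pair. The SD of the difference over genes was 0.50 on day 7, 0.35 on day 10, 0.30 on day 14 and 0.25 in sham. Of the 794 genes higher on day 7, 131 were also higher on day 10, which is 16.5% of the day 7 genes and 62.1% of the day 10 genes. Over all genes of the day 10 pair past its own filter, 211 of 15499 were higher. List medians of every pair were taken over the genes past the day 7 filter. Complement had medians of 1.64 on day 7, 0.67 on day 10 and -0.32 on day 14, and cell cycle genes 1.27, -0.14 and -0.20. Cholesterol synthesis had -0.71 on day 7 beside -0.13 and 0.062 on days 10 and 14. Days and operations share no library, and the differences between pairs were not tested.

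**Figure D5:**
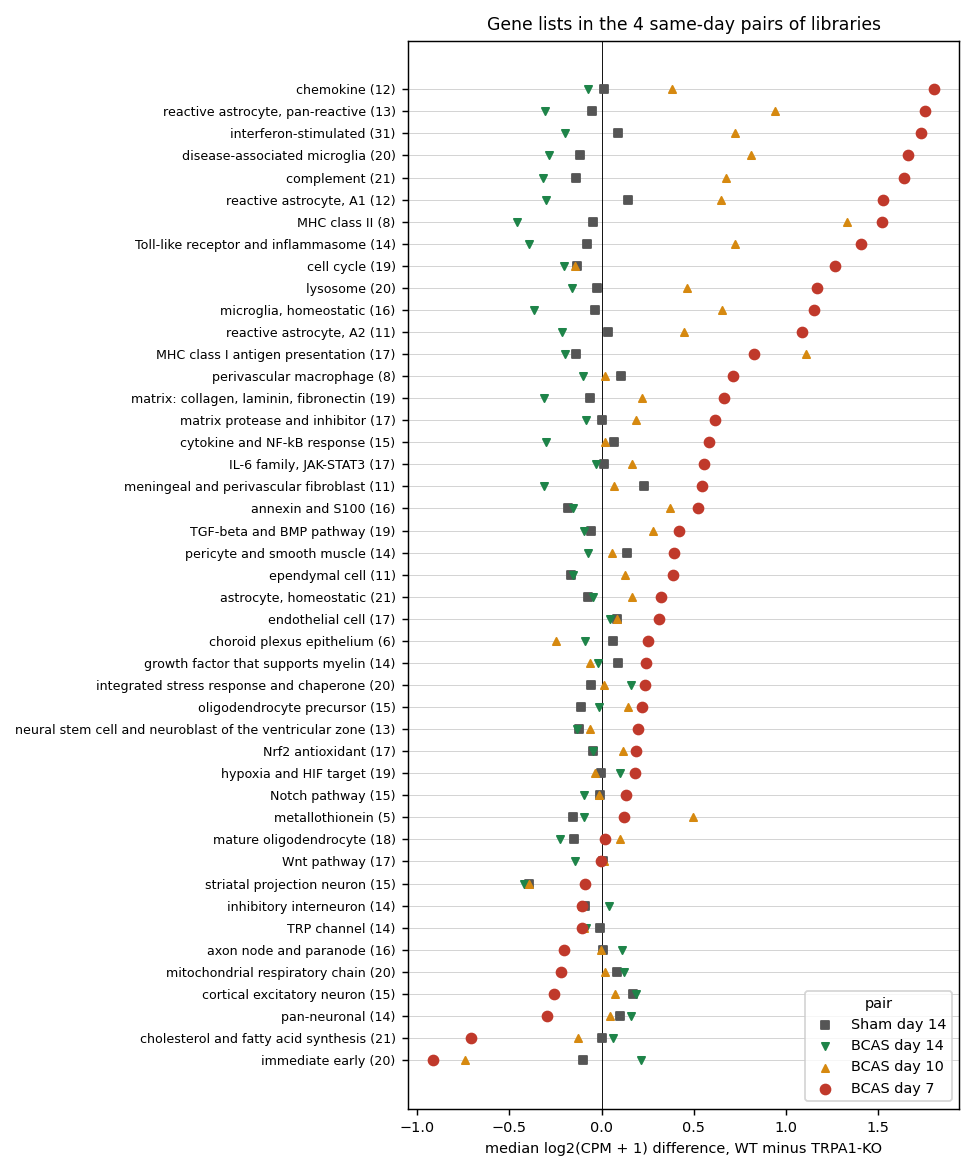
Median difference in log2(CPM + 1), WT minus TRPA1-KO label (x axis), of each gene list with at least 5 genes past the day 7 filter. The number of genes is in brackets (y axis), and the 4 same-day pairs of libraries use these same genes. For complement the red circle of day 7 lies at 1.64 and for cholesterol synthesis at -0.71, and for MHC class I the day 10 pair, at 1.11, exceeds the 0.83 of day 7.

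Beyond the lists, which hold 157 of the 735 higher and 10 of the 40 lower genes past the range rule, some of the largest differences were in single genes of varied roles. *Lilrb4a*, an inhibitory receptor of myeloid cells, had 306 reads in the WT-labelled library and 0 in the TRPA1-KO-labelled library, 81.5-fold over the floor. It was at most 1.76 CPM elsewhere. *A2m*, the protease inhibitor alpha-2-macroglobulin, was at 45.2 against 1.11 CPM, and WT day 10 held 9.96 CPM. *Capn11*, a calpain, had 141 reads against 1, but 8.34 CPM in the TRPA1-KO sham library, so its level varied apart from the operation and label. *Ucp2*, a mitochondrial carrier of macrophages, was at 70.1 against 9.46 CPM, and *Ftl1*, the ferritin light chain that stores iron, at 509 against 197 CPM. *Fabp7*, a fatty acid binding protein of glia, was at 44.1 against 7.24 CPM. *Ucp2*, *Ftl1* and *Fabp7* were picked after their values were seen.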

How the data were processed

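Per the labels and the study's methods, alignment to GRCm38 (mm10) used HISAT (version 2.1.0), and gene values came from Subread (version 2.0.1) followed by normalization in edgeR (version 3.34.1). The deposited signal is reads scaled to the normalized library size (CPM), on a linear scale, for 25239 genes in 8 libraries. The smallest nonzero value of each library was taken as 1 read. Every value was a whole multiple of it (tolerance 0.01 reads), so reads were recovered. Members and gene lists were chosen with earlier results of these data known, and the hepatocyte and Kupffer cell lists after their values were seen. Differences used log2(CPM + 1) for genes at 1 CPM in either day 7 library. Ratios carry exact conditional Clopper-Pearson 95% intervals. The pooled-spread fit used limma 3.58.1 with a trend (3 groups, 5 residual degrees of freedom, mean of at least 0.1 CPM). It was tested on simulated data. Alternatives used edgeR 4.0.16 and DESeq2 1.42.0 on the recovered reads. Named genes were *Trpa1* and genes the study names, up to 4 per list with the largest difference and at least 20 reads, the 10 most extreme past the range rule per direction, up to 10 limma calls per direction and sex-linked genes, and others named were examples chosen after their values were seen. Some list members are not reported by name here. Positions are RefSeq on GRCm38. Counting was not stated to use strand, so overlapping antisense genes cannot be told apart.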

Additional observations from a re-analysis of the deposited data

Results flagged for a closer look

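In 13 gene lists the median difference between labels was at least 1 on day 7 and below 0 on day 14. These lists were picked by their day 7 median, and both medians are over genes past the day 7 filter. The contrast between the days is thus no independent evidence. For the chemokine and the monocyte and neutrophil lists the size of the day 7 median depended on the filter, and it is not read as a result. For the glial lists the day 7 and day 14 medians, in log2(CPM + 1), were homeostatic microglia (1.15 and -0.37), pan-reactive astrocytes (1.75 and -0.31), A1 astrocytes (1.53 and -0.30), A2 astrocytes (1.09 and -0.22) and disease-associated microglia (1.66 and -0.28). For the immune lists they were monocyte and neutrophil (1.39 and -0.20), complement (1.64 and -0.32), MHC class II (1.52 and -0.46), interferon-stimulated (1.73 and -0.20), chemokine (1.81 and -0.074) and Toll-like receptor and inflammasome (1.41 and -0.39). For lysosome they were 1.17 and -0.16 and for cell cycle 1.27 and -0.20. For chemokines 4 of 12 genes reached 1 CPM in the TRPA1-KO-labelled library, and the day 7 median was 0.96 at a mean of 1 CPM and -0.27 at 10 CPM. The monocyte and neutrophil value rests on 4 genes, of which 1 reached 1 CPM in the TRPA1-KO-labelled library, and was 0.57 on day 7 with no filter. Each pair is 1 library against 1, and the difference between the pairs was not tested.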

How the results depend on the processing

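The counts of genes depended on how low values were treated. With a pseudocount of 0.1 CPM, 1210 genes were 2-fold higher and 181 lower, and beyond the range 98 were lower. With a filter of 10 CPM, 314 and 24 remained past 2-fold, and 291 and 15 beyond the range. Without the hepatocyte list and the *Mup* genes, an alternative added after the values were seen, 757 genes were 2-fold higher and 698 beyond the range. Limma called 38 higher and 15 lower with the pseudocount of 0.1, 58 and 8 with only the 4 other BCAS libraries, and 96 lower at a mean of 1 CPM. Leaving out each of the other 6 libraries gave 151 (without WT sham) to 496 (without WT BCAS day 10) higher and 19 to 72 lower. Count tests called 378 higher and 92 lower (edgeR) and 343 and 185 (DESeq2). The cause was not tested. Scaling to library totals moved the median of all genes by 0.067. Of 297 list medians under alternatives, 268 moved by less than 1 SD. Medians changed sign for chemokines, from 1.81 to -0.27 at 10 CPM, for red blood cell genes, from 0.96 to -0.18 at 10 CPM, and for Wnt genes, from -0.0017 to 0.057 with library totals. The 10 CPM filter removes the low members. The monocyte and neutrophil median was 0.57 and the chemokine median 1.45 with no filter, and the latter was 0.96 at a mean of 1 CPM. No paired analysis was possible because each label has 1 library on day 7 and the labels give no shared replicate numbers. Limits are the single libraries, reads of *Trpa1* against the labels, and the liver transcripts.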

Other observations

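Of the 794 genes higher under the label WT on day 7, 28 were at least 2-fold lower under that label on day 14. In the day 14 pair 80 of all 15345 genes past its own filter were lower. With the WT-labelled day 7 library left out, WT day 10 was the highest library for 436 of the 794. Haemoglobin *Hba-a1*, whose counts equal those of *Hba-a2*, varied between 1.10 and 75.2 CPM over the other 6 libraries and had 18 reads against 3 in the day 7 pair. Haemoglobin transcripts thus differed between libraries of either label, and red blood cell content was not tested.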
